A study of Mus musculus with 12 samples.

Results

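The RNA of 10 heat shock genes was followed in mouse liver: the transcription factor HSF1, the cytosolic chaperones HSPA1A, HSPA1B, HSPA8, HSP90AA1, HSP90AB1, HSPH1 and DNAJB1, and the mitochondrial chaperonin genes HSPD1 and HSPE1. They were taken by symbol from a table of counts for 56441 genes, and all 10 were found. The table writes mouse symbols in capitals. The 12 libraries fall into 4 groups of 3. The first 2 groups are ob/ob mice, which lack functional leptin, fed a high-fat diet (HFD) and given an AAV8 virus carrying FH (ob/ob FH) or the vector without it (ob/ob vector). The other 2 groups are C57BL/6 mice fasted for 24 h that had received the FH virus (fasted FH) or the vector (fasted vector). Every mouse was injected into the tail vein at 6 to 8 weeks of age, and 1 month of virus preceded the fast or ran beside the diet. FH is fumarate hydratase, the enzyme of the tricarboxylic acid cycle that makes malate from fumarate, and the series asks about its part in protection from fatty liver. The virus is labelled as specific to the liver. No source used here gives the promoter that drives FH. The models differ in genotype, diet and fasting together, so these cannot be told apart.

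Heat shock proteins fold new proteins and refold damaged ones. In the cytosol a J-protein such as DNAJB1 hands an unfolded protein to an HSP70, an HSP110 such as HSPH1 swaps the nucleotide of that HSP70, and HSP90 takes over proteins that need a late step, among them kinases and steroid receptors. HSPA8 and HSP90AB1 are made all the time, HSPA1A and HSPA1B are strongly induced by stress, and HSP90AA1, HSPH1, DNAJB1, HSPD1 and HSPE1 have a basal level that stress raises. The master switch is HSF1, a protein that chaperones hold inactive and that binds heat shock elements, repeats of GAA and TTC, once they are busy. HSPD1 (HSP60) forms a folding chamber inside mitochondria, and HSPE1 (HSP10) is its lid.

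HSPD1 and HSPE1 lie head to head on chromosome 1, and a single stretch of DNA lies at the start of HSPE1 and at 1 of the 2 starts of HSPD1. This stretch is shown because the RNAs of the 2 genes did not move together in the libraries, as given below. The sequence is RefSeq's promoter window of Hspe1 (GRCm38.p6, chr1:55087898-55088197, plus strand, 250 bases before to 50 bases after the start), and capitals mark its heat shock elements.
Hspe1: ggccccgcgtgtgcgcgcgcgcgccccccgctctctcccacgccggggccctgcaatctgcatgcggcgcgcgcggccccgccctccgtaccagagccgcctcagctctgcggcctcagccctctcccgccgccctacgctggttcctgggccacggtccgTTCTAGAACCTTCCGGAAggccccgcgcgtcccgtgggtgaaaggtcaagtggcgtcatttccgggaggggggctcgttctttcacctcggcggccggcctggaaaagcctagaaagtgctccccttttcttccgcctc
The window of 1 of the 2 Hspd1 starts shares 285 bases with it on the other strand, and the 2 starts lie 216 bases apart. The other Hspd1 start lies 95 bases past the Hspe1 start, so the 2 transcripts overlap there on opposite strands. The window of that start shares only 4 bases with the one shown and holds no heat shock element.

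The stress-inducible pair HSPA1B and HSPH1 is shown next, because HSPH1 was the gene nearest to HSPA1B in its profile over the 12 libraries, though HSPA1B was not among the 3 nearest to HSPH1. The windows are RefSeq's, again of 300 bases, both on the minus strand: Hspa1b on chr17:34959189-34959488 and Hsph1 on chr5:149636266-149636565. Capitals mark heat shock elements.
Hspa1b: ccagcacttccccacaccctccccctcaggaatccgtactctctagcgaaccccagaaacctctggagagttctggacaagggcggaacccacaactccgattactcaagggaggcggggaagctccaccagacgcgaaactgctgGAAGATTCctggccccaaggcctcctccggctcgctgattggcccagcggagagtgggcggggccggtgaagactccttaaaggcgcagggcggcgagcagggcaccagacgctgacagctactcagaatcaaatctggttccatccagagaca
Hsph1: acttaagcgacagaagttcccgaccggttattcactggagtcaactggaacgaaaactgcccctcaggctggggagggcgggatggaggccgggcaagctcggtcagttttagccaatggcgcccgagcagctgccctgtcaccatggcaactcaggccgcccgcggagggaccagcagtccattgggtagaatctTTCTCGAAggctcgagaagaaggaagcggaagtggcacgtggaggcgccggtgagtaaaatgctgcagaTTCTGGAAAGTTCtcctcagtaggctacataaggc
The motifs searched on both strands were GAANNTTC and TTCNNGAA, which are 2 units of the repeat, and each of these followed by NNGAA or NNTTC so that the units alternate, which makes 3 units and contains the shorter ones. The windows shown here of Hspe1 and Hsph1 hold matches of 3 units, and that of Hspa1b holds only a match of 2. In Hspe1 2 matches of 3 units overlap, at -89 and -84 from the start, so its run is longer than 3 units. The Hsph1 window holds 1 match of 3 units, at 15, and a separate match of 2 units at -54. Of the 9 windows of the 6 genes with an entry, 6 held 2 units and 4 held 3 units, overlapping windows of a gene counted apart. Among all 32851 RefSeq promoters, 15.1% held 2 units and 0.603% held 3 units. The Hspa1a window differs from that of Hspa1b at 4 of 300 bases and has the same element. The 2 windows of Dnajb1 on chromosome 8 hold no such letters. Hsf1, Hspa8, Hsp90aa1 and Hsp90ab1 have no entry. A match is a description of these letters only.

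Total counts per library were 21632289 to 23506015 for ob/ob FH, 12573267 to 14496559 for ob/ob vector, 19107050 to 25873379 for fasted FH and 12231828 to 14884323 for fasted vector. The delivered gene, FH1, had 620, 616 and 802 CPM (counts scaled to a common library size, here after TMM scaling unless library totals are named) in ob/ob FH libraries, against 142, 106 and 118 CPM in ob/ob vector libraries. It had 926, 721 and 792 CPM in fasted FH libraries, against 311, 408 and 238 CPM in fasted vector libraries. The labels name hepatocytes as the cell type, and the markers of other liver cells were present in every group. Cell markers differed between FH and vector libraries. Summed over 8 hepatocyte markers, the level was 137183 to 168538 CPM in ob/ob FH, 47409 to 59047 CPM in ob/ob vector, 175406 to 185398 CPM in fasted FH and 53513 to 76587 CPM in fasted vector libraries. Over 8 Kupffer cell and macrophage markers it was 554 to 776 CPM, 283 to 451 CPM, 191 to 225 CPM and 408 to 551 CPM in the same order of groups, and over 8 markers of sinusoidal endothelium 300 to 378 CPM, 217 to 282 CPM, 162 to 189 CPM and 332 to 424 CPM. No marker of these 3 lists was at 0 throughout a group. The nuclear noncoding RNA MALAT1 stood at 10.5 to 30.1 CPM and 36.2 to 58.4 CPM in the ob/ob and fasted FH libraries, against 472 to 612 CPM and 511 to 687 CPM in the ob/ob and fasted vector libraries, on library totals. XIST, a marker of female cells, had 2242 to 4992 counts in the 3 ob/ob FH libraries where 4 Y-linked genes summed to 0, while the other 9 libraries held 1 to 24 counts of XIST and 2304 to 5181 Y-linked counts. FH and these sex markers therefore cannot be told apart in ob/ob livers. The model and these markers cannot be told apart in the comparison of the FH groups or in the difference of the FH effects. The part of cell make-up in the results below was not tested. In bulk RNA, fewer cells of a type and less RNA per cell cannot be told apart. The labels do not tie each library to its own mouse, so p-values measure the scatter of libraries, which can be technical.

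Per length of transcript, 4 of the 10 genes carried most of the chaperone RNA. Per kilobase (kb), HSPA8 had 442 ± 37.7 CPM in ob/ob FH, 207 ± 53.3 CPM in ob/ob vector, 1144 ± 147 CPM in fasted FH and 593 ± 48.9 CPM in fasted vector livers (SD, n = 3 each). HSP90AB1 per kb had 539 ± 27.1 CPM, 243 ± 38.0 CPM, 724 ± 44.2 CPM and 361 ± 31.6 CPM in the same order. The places of HSPE1 and HSPD1 changed with the group, and HSPE1 was second per kb in both vector groups. In fasted FH livers HSPE1 had 309 ± 43.2 CPM per kb and HSPD1 352 ± 39.8 CPM per kb, whereas in fasted vector livers HSPE1 had 372 ± 115 CPM per kb and HSPD1 142 ± 17.6 CPM per kb. The ranges of HSP90AB1 and HSPE1 overlapped in both vector groups, those of HSPD1 and HSPE1 in both FH groups, and those of HSPA8 with HSPE1 and with HSP90AB1 in ob/ob vector livers. In every group the levels per kb then ran from HSP90AA1 through HSPH1 to DNAJB1, with HSF1 and HSPA1B lower still and HSPA1A last. The 10 genes took 0.283% to 0.291% of all counts in ob/ob FH, 0.210% to 0.262% in ob/ob vector, 0.401% to 0.507% in fasted FH and 0.362% to 0.432% in fasted vector libraries. These shares did not overlap between FH and vector in ob/ob livers, and did overlap in fasted livers.

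**Figure D1:**
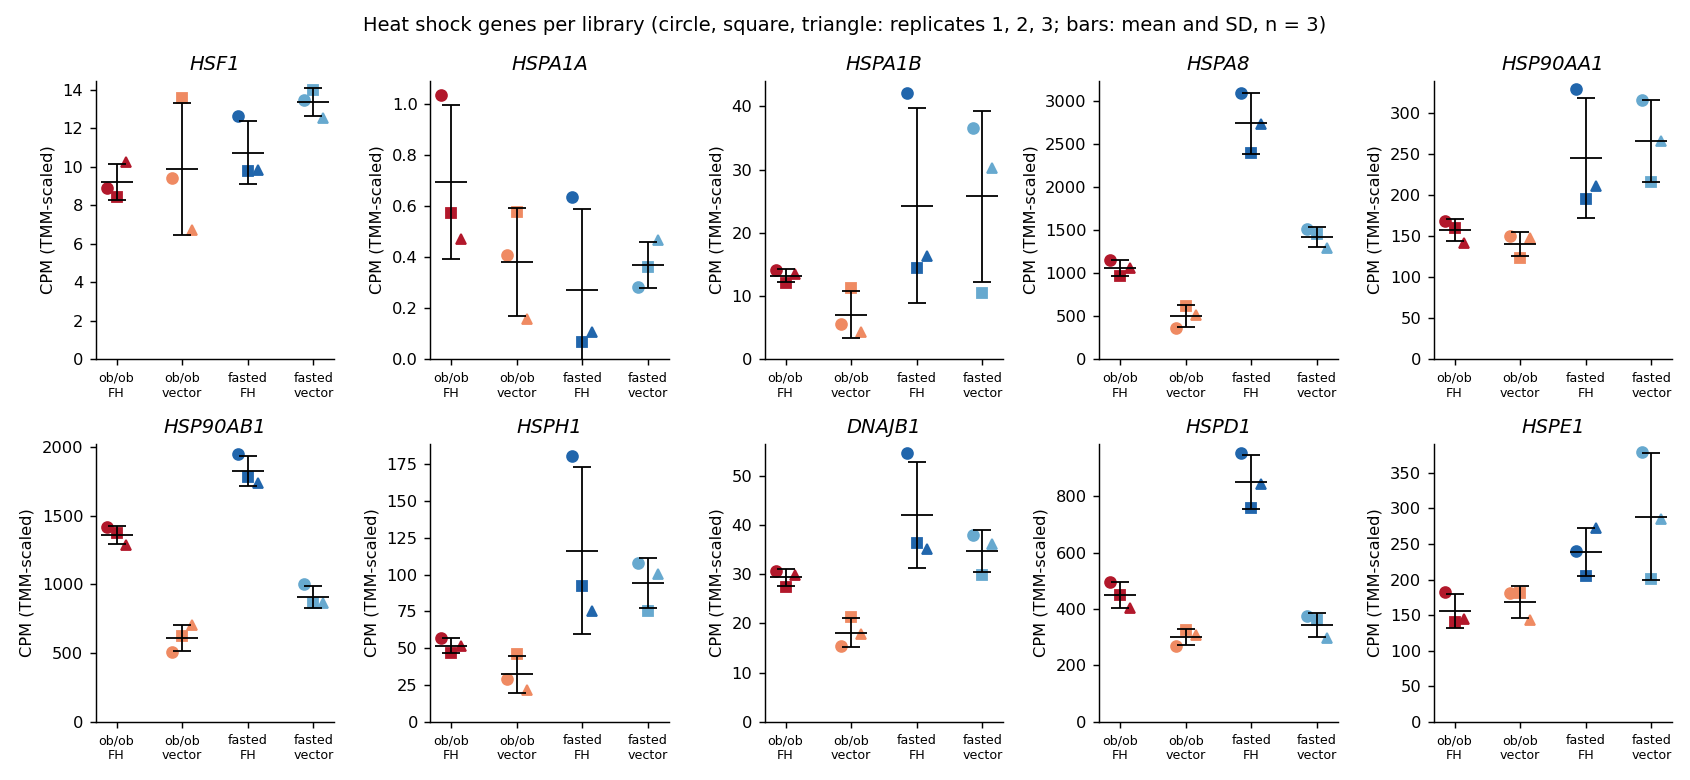
Level of each heat shock gene in CPM on TMM-scaled library sizes (vertical axes, linear, each from 0) in the 4 groups (horizontal axes). Circles, squares and triangles are replicates 1, 2 and 3, and bars give the mean and SD of 3 libraries. HSPA8, HSP90AB1 and HSPD1 are higher in every FH library than in any vector library of the same model, and HSPE1, HSP90AA1 and HSF1 overlap.

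With the FH virus the genes split. The constitutive chaperones HSPA8 and HSP90AB1 and the mitochondrial HSPD1 were higher in FH livers of both models, by 1.5 to 2.48-fold on the TMM scale. The HSPD1 partner HSPE1, the stress-inducible HSP90AA1 and the factor HSF1 were called in neither model. DNAJB1 was called higher in ob/ob livers alone, which is not by itself a difference between the models, and no gene of the 9 tested was called lower. A gene is called where edgeR's quasi-likelihood test gives an adjusted p (Benjamini-Hochberg, over 15228 genes tested) under 0.05.

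In ob/ob livers 4 of the 9 heat shock genes tested were called higher and 0 lower. Of all genes tested, 53.7% were called, 25.8% higher and 27.9% lower. In fasted livers 3 of 9 were called higher and 0 lower, beside 55% of all genes, 27.4% higher and 27.6% lower. The libraries of 6 of 9 genes lay higher with FH without overlap in ob/ob livers, as did 30.6% of all genes, with 61.8% apart in either direction. In fasted livers this held for 3 of 9, as it did for 30.4% of all genes, with 61% apart in either direction. The median log2 fold change of the 9 genes was 0.68 in ob/ob and 0.28 in fasted livers, against -0.01 and -0.04 over all genes tested. The share called in either direction was no higher among these genes than among all genes, so what follows is about single genes. With library totals in place of TMM the median over all genes shifted by -0.62 in the ob/ob and by -0.67 in the fasted FH comparison, and every change with FH below is relative to the TMM scale.

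HSP70 system. HSPA8, the constitutive HSP70 of the cytosol, had 1151, 971 and 1054 CPM in ob/ob FH libraries (replicates 1 to 3, as in all such lists), against 359, 611 and 517 CPM in ob/ob vector libraries. It had 3095, 2390 and 2733 CPM in fasted FH libraries, against 1515, 1455 and 1289 CPM in fasted vector libraries. Every FH library lay above every vector library of its model. The change was 2.14-fold in ob/ob livers (log2 fold change 1.10, SE 0.19, edgeR adjusted p = 3.67e-04) and 1.93-fold in fasted livers (0.95, SE 0.19, adjusted p = 9.81e-04). On library totals the fasted change was 0.28 (adjusted p = 0.179).

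The stress-inducible HSP70 genes were low. HSPA1B had 14.0, 12.1 and 13.4 CPM in ob/ob FH libraries, against 5.57, 11.2 and 4.24 CPM in ob/ob vector libraries. It had 42.1, 14.4 and 16.3 CPM in fasted FH libraries, against 36.5, 10.5 and 30.2 CPM in fasted vector libraries. The ob/ob groups did not overlap, while the fasted groups overlapped and their libraries were scattered widely. The log2 fold change was 0.91 in ob/ob livers (SE 0.48, edgeR adjusted p = 0.127, 95% interval -0.20 to 2.02) and -0.09 in fasted livers (SE 0.46, adjusted p = 0.884, -1.14 to 0.97). With 1 library left out at a time the ob/ob change ran from 0.66 to 1.44 (edgeR adjusted p from 0.0228 to 0.298). It was called only without ob/ob vector replicate 2. With no filter on low counts it was 0.92 (adjusted p = 2.59e-06). The filter does not remove HSPA1B and its change was nearly the same, so the smaller p comes from another estimate of the spread. HSPA1A, its neighbour on chromosome 17, had 20, 11 and 10 counts in ob/ob FH, 7, 11 and 3 in ob/ob vector, 9, 1 and 2 in fasted FH and 4, 6 and 7 in fasted vector libraries, and did not pass the filter on low counts. The 2 transcripts share most of their sequence: 58.8% of the 50-base words of Hspa1a are also in Hspa1b. No source used here says how reads that match both were counted, so the split between the 2 genes is uncertain. Summing them into 1 row changed no call.

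The partners of HSP70 went with HSPA8 in part. DNAJB1, the J-protein that feeds clients to HSP70, had 30.7, 27.5 and 29.9 CPM in ob/ob FH libraries, against 15.3, 21.2 and 17.8 CPM in ob/ob vector libraries. In the fasted livers it had 54.5, 36.4 and 35.1 CPM with FH, against 38.0, 29.9 and 36.2 CPM with the vector. The groups were apart in ob/ob livers, where DNAJB1 rose 1.62-fold (log2 fold change 0.69, SE 0.18, edgeR adjusted p = 0.00462), and overlapped in fasted livers (0.28, SE 0.17, adjusted p = 0.190). The ob/ob change was 0.07 on library totals (adjusted p = 0.759) and 0.44 with offsets for GC content (adjusted p = 0.0625). HSPH1, the HSP110 that recharges HSP70, had 57.02, 46.9 and 51.2 CPM in ob/ob FH libraries, against 29.2, 46.1 and 21.6 CPM in ob/ob vector libraries. In fasted livers HSPH1 had 181, 92.2 and 75.4 CPM with FH, against 108, 75.3 and 100.3 CPM with the vector. Its ob/ob groups touched without overlap and its fasted groups overlapped. The log2 fold changes were 0.68 (SE 0.31, adjusted p = 0.0769) and 0.30 (SE 0.30, adjusted p = 0.421). With 1 library left out at a time the ob/ob change of HSPH1 ran from 0.47 to 1.04 (edgeR adjusted p from 0.00766 to 0.220). It was called only without ob/ob vector replicate 2. With no filter on low counts it was 0.70 (adjusted p = 1.38e-04), nearly the same change with another estimate of the spread.

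HSP90 pair. The cytosol has 2 HSP90 genes, and they parted with FH. The constitutive HSP90AB1 had 1420, 1371 and 1285 CPM in ob/ob FH libraries, against 511, 621 and 702 CPM in ob/ob vector libraries, and 1951, 1782 and 1740 CPM in fasted FH libraries, against 1003, 867 and 863 CPM in fasted vector libraries. All 6 FH libraries lay above all 6 vector libraries. The rise was 2.22-fold in ob/ob (log2 fold change 1.15, SE 0.15, edgeR adjusted p = 4.03e-05) and 2.00-fold in fasted livers (1.00, SE 0.15, adjusted p = 1.13e-04), and it was called under every alternative tried. The inducible HSP90AA1 had 168, 160 and 142 CPM in ob/ob FH libraries, against 150, 123 and 148 CPM in ob/ob vector libraries. In fasted livers HSP90AA1 had 329, 195 and 211 CPM in FH libraries, against 316, 216 and 265 CPM in vector libraries. The groups overlapped in both models, with log2 fold changes of 0.16 (95% interval -0.29 to 0.61, adjusted p = 0.503) and -0.12 (-0.57 to 0.33, adjusted p = 0.633). On library totals HSP90AA1 was called lower with FH in fasted livers (-0.79, adjusted p = 0.00378).

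The ratio of the 2 genes within a library needs no scaling of libraries. HSP90AB1 had 8.44, 8.58 and 9.05 counts per HSP90AA1 count in ob/ob FH libraries, against 3.41, 5.06 and 4.76 in ob/ob vector libraries. The ratio was 5.94, 9.13 and 8.24 in fasted FH libraries, against 3.18, 4.02 and 3.25 in fasted vector libraries. It was 2.00-fold higher with FH in ob/ob livers and 2.21-fold higher in fasted livers, with no overlap in either (two-sided exact permutation p = 0.1 for each, the smallest that 3 against 3 libraries allow). Base composition moved with this contrast. The HSP90AA1 transcript has 43.7% GC and HSP90AB1 51.0%, and over all genes the median FH effect was -0.72 in ob/ob and -0.55 in fasted livers for the quintile of genes with the lowest GC, which holds HSP90AA1, against 0.16 and 0.06 for the middle quintile, which holds HSP90AB1. With offsets for GC, the gap between the 2 genes' log2 fold changes was 0.43 in place of 0.99 in ob/ob livers and 0.74 in place of 1.12 in fasted livers, and HSP90AA1 was itself called higher in ob/ob livers (0.55, edgeR adjusted p = 0.0313).

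**Figure D2:**
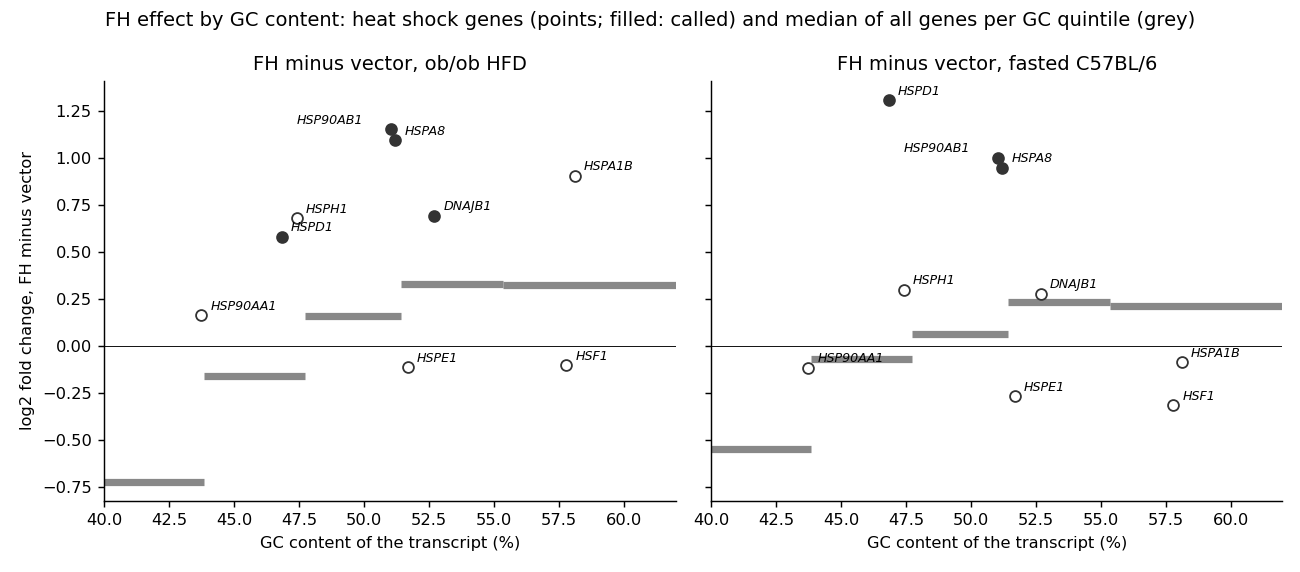
Log2 fold change of FH minus vector (vertical axis) against the GC content of the transcript in percent (horizontal axis), in ob/ob and in fasted livers. Points are heat shock genes, filled where called, and grey bars are medians of all genes in 5 classes of equal size, of which the outer ones run on past the axis. The lowest class sits at -0.72 and -0.55, and HSPD1, HSPA8 and HSP90AB1 lie above the bars of their classes in both models.

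Mitochondrial chaperonin. HSPD1 and HSPE1, whose promoter windows overlap as given above and whose products work as chamber and lid, differed in their response. HSPD1 had 497, 450 and 405 CPM in ob/ob FH libraries, against 269, 325 and 309 CPM in ob/ob vector libraries. It had 953, 760 and 843 CPM in fasted FH libraries, against 376, 360 and 295 CPM in fasted vector libraries. All FH libraries of HSPD1 lay above all vector libraries. The rise was 1.5-fold in ob/ob (log2 fold change 0.58, SE 0.15, edgeR adjusted p = 0.00496) and 2.48-fold in fasted livers (1.31, SE 0.15, adjusted p = 1.47e-05). On library totals the ob/ob value was -0.05 (adjusted p = 0.781) and the fasted value stayed called at 0.64. HSPE1 had 183, 141 and 144 CPM in ob/ob FH libraries, against 182, 181 and 143 CPM in ob/ob vector libraries. In fasted livers HSPE1 had 240, 205 and 272 CPM in FH libraries, against 379, 200 and 285 CPM in vector libraries. Its groups overlapped in both models (log2 fold change -0.11, 95% interval -0.59 to 0.36, adjusted p = 0.667 in ob/ob; -0.27, -0.75 to 0.21, adjusted p = 0.284 in fasted livers). On library totals HSPE1 was called lower with FH in both, at -0.75 (adjusted p = 0.00662) and -0.95 (adjusted p = 0.00143).

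Within a library HSPD1 had 2.72, 3.20 and 2.81 counts per HSPE1 count in ob/ob FH, against 1.48, 1.79 and 2.16 in ob/ob vector libraries. The ratio was 3.97, 3.70 and 3.10 in fasted FH libraries, against 0.993, 1.80 and 1.04 in fasted vector libraries. It was 1.62-fold higher with FH in ob/ob livers and 2.91-fold higher in fasted livers, without overlap (two-sided exact permutation p = 0.1 for each, the smallest possible). Transcript length moved with it: HSPE1 has 0.774 kb and lies in the quintile of the shortest transcripts, whose median FH effect was -0.12 in ob/ob and -0.16 in fasted livers. With offsets for length the gap between the 2 log2 fold changes was 0.27 in place of 0.70 in ob/ob and 1.26 in place of 1.58 in fasted livers, and with offsets for GC it was 1.03 and 1.80. The 2 genes share 112 bases on opposite strands in GENCODE M21. The library kit keeps the strand, but no source used here says whether counting used it.

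**Figure D3:**
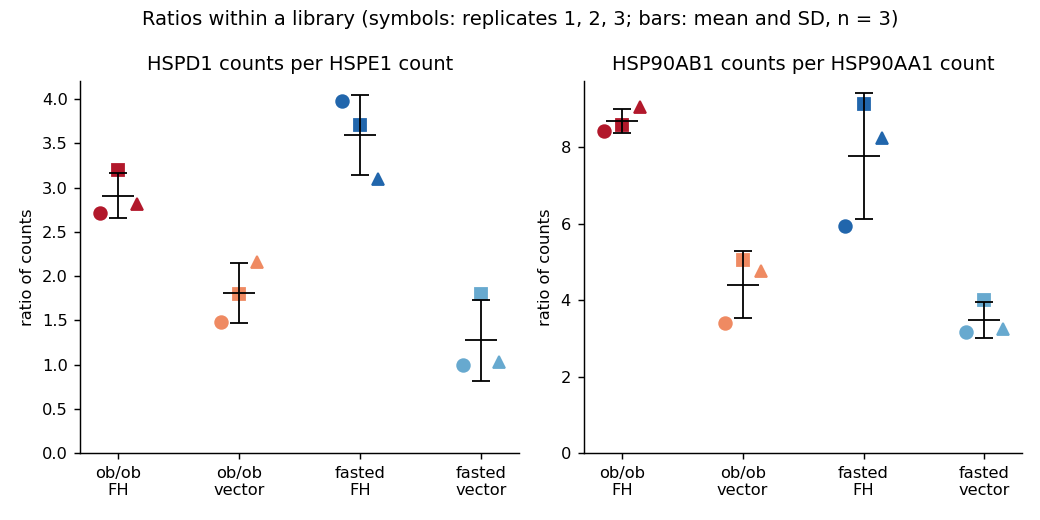
Counts of HSPD1 per count of HSPE1 (left) and of HSP90AB1 per count of HSP90AA1 (right) within each library, on linear axes from 0, by group. Symbols are replicates 1, 2 and 3, and bars are the mean and SD of 3 libraries. FH libraries lie above the vector libraries of the same model in both panels.

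HSF1 itself was low, with 8.91, 8.43 and 10.2 CPM in ob/ob FH libraries, against 9.40, 13.6 and 6.70 CPM in ob/ob vector libraries. It had 12.7, 9.76 and 9.81 CPM in fasted FH libraries, against 13.5, 14.0 and 12.6 CPM in fasted vector libraries. The ob/ob groups overlapped widely, and in fasted livers fasted FH replicate 1 alone reached the vector range. The log2 fold changes were -0.10 (95% interval -0.60 to 0.39, edgeR adjusted p = 0.702) and -0.32 (-0.81 to 0.18, adjusted p = 0.224). On library totals HSF1 was called lower with FH, at -0.73 in ob/ob (adjusted p = 0.0122) and -0.98 in fasted livers (adjusted p = 0.00190). HSF1 acts mainly through its protein's activity, which RNA counts do not show.

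The difference of the FH effect between the models, ob/ob minus fasted, was called for HSPD1 alone among the 9 genes, beside 8.43% of all genes tested, 4.77% higher and 3.66% lower. HSPD1 rose less in ob/ob livers, by -0.73 log2 units (SE 0.21, edgeR adjusted p = 0.0483). The call was lost without any 1 of the 12 libraries, with values of -0.80 to -0.61 and adjusted p of 0.0583 to 0.169. For the other genes the difference ran from 0.15 for HSPA8 (95% interval -0.47 to 0.77) and 0.15 for HSP90AB1 (-0.34 to 0.64) to 0.99 for HSPA1B (-0.54 to 2.52), and none was called.

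**Figure D4:**
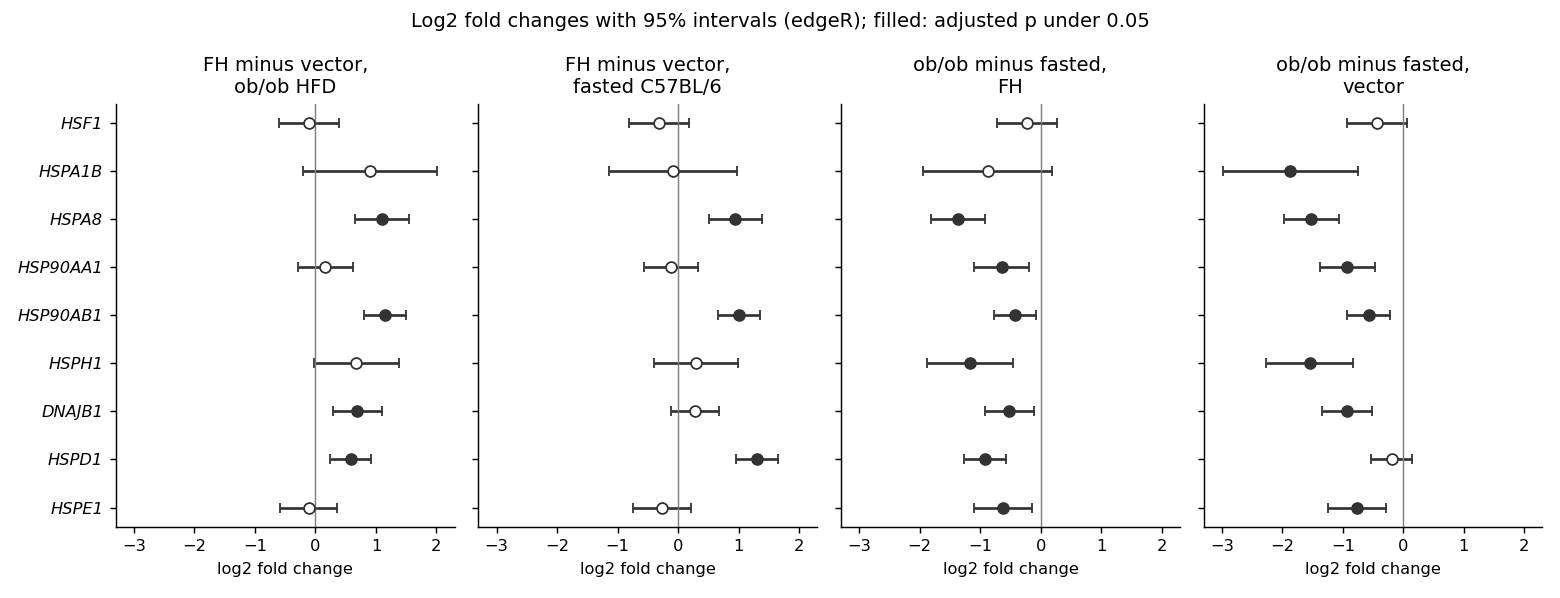
Log2 fold changes (horizontal axes) of the 9 heat shock genes tested (rows) in 4 comparisons. Bars are 95% intervals on 8 residual degrees of freedom, and filled points are called. In the FH comparisons HSPA8, HSP90AB1 and HSPD1 lie right of 0 in both models, and in the comparisons of ob/ob with fasted livers every point lies left of 0.

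Between the models, the heat shock genes were lower in ob/ob livers on a high-fat diet than in fasted C57BL/6 livers. In the vector groups 7 of 9 genes tested were called lower and 0 higher, beside 17.5% of all genes called, 8.18% lower and 9.36% higher. In the FH groups 7 of 9 were also called lower and 0 higher, beside 40.2% of all genes called, 21.6% lower and 18.6% higher. Of the 9 genes, 6 were lower in ob/ob without overlap in the vector groups. There 29.6% of all genes were apart in either direction, 14.8% higher and the rest lower. In the FH groups 8 were lower without overlap, where 56.7% of all genes were apart, 25.4% higher and the rest lower. The median log2 fold change of the 9 genes was -0.92 in the vector and -0.64 in the FH groups, against -0.00 and -0.09 over all genes. The groups of these 2 comparisons are the same libraries as in the FH comparisons, given above per library. The summed level of the 10 genes was 1784 ± 224 CPM in ob/ob vector and 3397 ± 336 CPM in fasted vector livers, and 3285 ± 216 CPM in ob/ob FH and 6093 ± 699 CPM in fasted FH livers (SD, n = 3 each).

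The 3 largest falls in vector livers were those of HSPA1B, HSPH1 and HSPA8. HSPA8 fell by 1.52 on the log2 scale in vector livers (SE 0.19, edgeR adjusted p = 2.44e-04) and by 1.37 in FH livers (SE 0.19, adjusted p = 1.62e-04), with no overlap between ob/ob and fasted libraries, and these calls held without any 1 library. HSPH1 fell by 1.55 (SE 0.31, adjusted p = 0.00447) and by 1.17 (SE 0.31, adjusted p = 0.00863), again with no overlap. Without fasted FH replicate 1, the highest library of HSPH1, the second value was -0.69 (adjusted p = 0.0552). HSPA1B fell by 1.87 in vector livers (SE 0.48, adjusted p = 0.0180), although its groups overlapped through ob/ob vector replicate 2 and fasted vector replicate 2, and it was not called in FH livers (-0.88, adjusted p = 0.148). The vector call of HSPA1B did not hold when ob/ob vector replicate 1 (-1.73, adjusted p = 0.0681) or 3 (-1.61, adjusted p = 0.0653) was left out, nor when fasted vector replicate 1 (-1.53, adjusted p = 0.0645) or 3 (-1.74, adjusted p = 0.0620) was. In FH livers its change was -0.22 without fasted FH replicate 1, and leaving out any 1 library gave no call. With no filter on low counts it was called (-0.84, edgeR adjusted p = 1.89e-05). That value is close to the -0.88 with the filter, so the smaller p comes from another estimate of the spread.

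DNAJB1 fell by 0.93 in vector livers (edgeR adjusted p = 0.00305) and by 0.52 in FH livers (adjusted p = 0.0297). HSP90AA1 fell by 0.92 (adjusted p = 0.00606) and by 0.64 (adjusted p = 0.0183), and HSP90AB1 by 0.58 (adjusted p = 0.0192) and by 0.43 (adjusted p = 0.0376). HSPE1 fell by 0.77 (adjusted p = 0.0216) and by 0.62 (adjusted p = 0.0299). Several of these calls rested on single libraries. In vector livers those of DNAJB1 and HSP90AA1 held without any 1 library. HSP90AB1 lost its call without fasted vector replicate 1 (-0.50, adjusted p = 0.0590) or ob/ob vector replicate 1 (-0.46, adjusted p = 0.0954). HSPE1 lost its call without fasted vector replicate 1 (-0.52, adjusted p = 0.0851) or 3 (-0.78, adjusted p = 0.0570) or ob/ob vector replicate 3 (-0.67, adjusted p = 0.0811). In FH livers HSP90AB1 lost its call without any 1 of the 6 libraries (-0.45 to -0.34), DNAJB1 without 4 of them (-0.50 to -0.28) and HSPE1 without 4 (-0.61 to -0.51), and HSP90AA1 missed it with ob/ob FH replicate 2 left out (-0.66, adjusted p = 0.0517), with ob/ob FH replicate 3 left out (-0.54, adjusted p = 0.0968) and with fasted FH replicate 1 left out (-0.37, adjusted p = 0.115). The count of 7 genes lower in FH livers was 3 when ob/ob FH replicate 2 or 3 was left out, 2 when fasted FH replicate 1 was, and 3 on library totals. The count of 7 in vector livers was 4 without fasted vector replicate 1 and 8 without ob/ob vector replicate 2, where HSF1 was called too (-0.73, adjusted p = 0.0115).

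HSPD1 did not pass the test in vector livers (-0.19, 95% interval -0.53 to 0.15, edgeR adjusted p = 0.420), whereas in FH livers it fell by 0.92 (SE 0.15, adjusted p = 4.29e-04), a call that held without any 1 library. The gap between these values is the same quantity as the difference of the FH effects above. HSF1 was called in neither comparison (-0.43, adjusted p = 0.185 and -0.22, adjusted p = 0.434).

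Single libraries moved many of the genes at once. In ob/ob FH, fasted FH and fasted vector livers, replicate 1 had the highest level of 8 of the 9 genes tested, and in ob/ob vector livers replicate 2 had the highest of 6. The share of all genes that were highest in these libraries was not measured. HSPA1B had 42.1 CPM in fasted FH replicate 1 against 14.4 and 16.3 CPM in the other fasted FH libraries. Its coefficient of variation was 7.63% in ob/ob FH, 53.0% in ob/ob vector, 63.5% in fasted FH and 52.6% in fasted vector libraries. HSPH1 was at 181 CPM in the same library, against 92.2 and 75.4 CPM. The J-protein DNAJA1, the partner of HSPA8 in the cytosol, and the ER chaperone HSPA5 were also highest there, at 474 CPM against 309 and 340 CPM and at 1570 CPM against 1007 and 1057 CPM. Other chaperones were not highest in that library: CALR had 1432 CPM against 1454 and 1450 CPM, and DNAJA2 had 217 CPM against 190 and 222 CPM. HSP90AB1 had a coefficient of variation of 5.03% in ob/ob FH, 15.7% in ob/ob vector, 6.11% in fasted FH and 8.75% in fasted vector libraries.

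Likeness between genes was measured as the root mean square distance between log2 CPM profiles, each centred on its own mean over the 12 libraries. The gene nearest to HSPA1B among all those tested was HSPH1, at 0.35. The gene nearest to HSP90AB1 was CCT7, a subunit of the cytosolic chaperonin TRiC, at 0.10, followed by DIS3L2 and MYBBP1A. Nearest to HSPD1 were PA2G4 at 0.11, GMPS and EIF4H, and HSPD1 and HSPE1 lay 0.65 apart. Nearest to HSPE1 were MTHFS, HINT1 and NPM3. DNAJB1 had 2 genes of the endoplasmic reticulum (ER), MANF and DNAJB9, as its nearest at 0.18 and 0.19, and HSP90AA1 was nearest to LYSMD4, MRPL24 and DNAJA1, all at 0.18. HSPA8 was nearest to SULT1A1, PDIA5 and AADAT at 0.26 to 0.27, and HSF1 to LBHD1, TFCP2 and CASC3 at 0.17 to 0.18. HSPH1 was nearest to SMYD1, CRELD2 and GNMT at 0.27 to 0.31. These distances describe 12 libraries that share the same 4 groups.

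Co-chaperones were read from lists of known partners. The counts called with FH stand beside 25.8% of all genes higher and 27.9% lower in ob/ob, and 27.4% and 27.6% in fasted livers. Of 8 co-chaperones of HSP70, 3 were called higher and 1 lower with FH in ob/ob livers. In fasted livers 7 were higher and 0 lower, and the medians were 0.20 in ob/ob and 0.61 in fasted livers. BAG3, a nucleotide exchange factor that is itself heat-inducible, rose by 1.17 on the log2 scale in ob/ob (edgeR adjusted p = 7.36e-06) and by 0.92 in fasted livers (adjusted p = 3.95e-05). HSPBP1, another exchange factor, rose by 0.95 and 0.90. Of 14 co-chaperones of HSP90 tested, 7 rose and 3 fell in ob/ob and 6 rose and 4 fell in fasted livers. STIP1, which passes clients from HSP70 to HSP90, rose by 1.38 and 0.86, the kinase adaptor CDC37 by 0.77 and 0.86, and FKBP4 by 1.29 and 0.87, while CDC37L1 fell by 1.14 and by 0.97. Of 7 other cytosolic HSP70 and HSP110 genes, 2 rose and 1 fell in ob/ob, and 2 rose and 2 fell in fasted livers. Their medians were 0.01 and 0.15, and HSPA4, an HSP110 among them, rose by 0.91 and 1.15. Of 10 other J-proteins, 2 rose and 1 fell in ob/ob and 5 rose and 0 fell in fasted livers, and DNAJA2 rose by 0.43 and 1.05. DNAJA1 was at 0.05 and 0.06 and was not called.

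In the chaperonin TRiC and its helper prefoldin, 6 of 14 genes rose and 3 fell with FH in ob/ob livers, and 7 rose and 2 fell in fasted livers. CCT7 rose by 1.01 and 0.81, CCT3 by 0.99 and 0.80 and CCT2 by 0.73 and 0.94, subunits of the TRiC ring, and the prefoldin subunit VBP1 fell by 1.05 and by 1.06. Among 14 mitochondrial chaperones and proteases, 8 rose in each model, and 3 fell in ob/ob and 2 in fasted livers. HSPA9, the mitochondrial HSP70, rose by 0.72 in ob/ob and 1.48 in fasted livers, and like HSPD1 it had a negative difference between the models (-0.76, edgeR adjusted p = 0.0365). The disaggregase CLPB rose by 1.34 and 1.46 and the protease LONP1 by 0.93 and 1.40. CLPX, the unfoldase of the matrix, was at 0.09 in ob/ob livers (not called) and fell by 1.51 in fasted livers, with a difference of 1.61 (adjusted p = 0.0126). Of 11 ER chaperones 9 rose and 0 fell in ob/ob and 7 rose and 1 fell in fasted livers, with CALR at 1.67 and 1.15. These counts stand beside 25.8% of all genes higher and 27.9% lower with FH in ob/ob, and 27.4% and 27.6% in fasted livers.

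**Figure D5:**
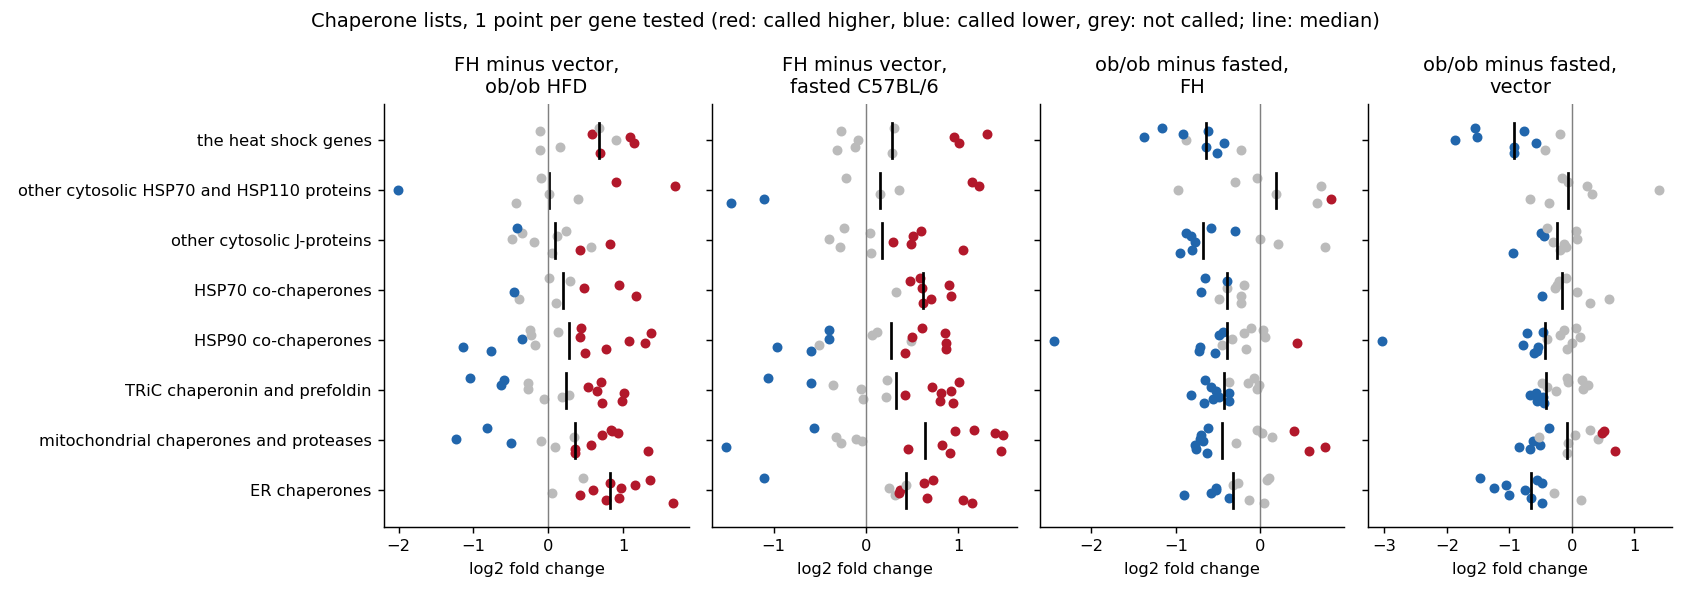
Log2 fold changes (horizontal axes) of the heat shock genes and of 7 lists of other chaperones (rows) in 4 comparisons, 1 point per gene tested. Red points were called higher, blue lower and grey not called, and black lines are list medians, which for the heat shock genes are 0.68, 0.28, -0.64 and -0.92 from left to right. Rises and falls with FH stand side by side within most lists, and most called points in the comparisons of ob/ob with fasted livers are lower.

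Between the models the lists differed in how many genes were lower. In vector livers, ob/ob against fasted, 9 of 11 ER chaperones, 7 of 14 HSP90 co-chaperones and 6 of 14 TRiC and prefoldin genes were called lower and 0 of each higher, beside 8.18% of all genes lower and 9.36% higher. In FH livers these counts were 5, 6 and 9 lower, and 0, 1 and 0 higher, beside 21.6% of all genes lower and 18.6% higher. Of the 10 other J-proteins 3 were lower in vector and 7 in FH livers, and of the 8 HSP70 co-chaperones 1 and 3, with 0 higher in each. The 7 other HSP70 and HSP110 genes had 0 calls in vector livers and 1 higher in FH livers, with medians of -0.06 and 0.19. The 14 mitochondrial genes had 3 higher and 5 lower in vector livers (median -0.07) and 3 higher and 7 lower in FH livers (median -0.45). HSPA5, the HSP70 of the ER, fell by 1.24 in vector livers (edgeR adjusted p = 4.50e-04) and by 0.53 in FH livers, and DNAJA1 by 0.95 in each. The co-chaperone FKBP5, a glucocorticoid-induced binder of steroid receptors, fell by 3.04 (adjusted p = 3.20e-05) and by 2.44 (adjusted p = 4.55e-05). FKBP5 had 40.7, 43.8 and 49.4 CPM in ob/ob FH and 21.2, 14.3 and 27.5 CPM in ob/ob vector libraries, against 298, 235 and 193 CPM in fasted FH and 104, 232 and 180 CPM in fasted vector libraries. All ob/ob libraries lay below all fasted ones.

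Other genes tied to temperature were measured for comparison. Of 13 other heat-inducible genes, some of which are also in the lists above, 7 rose and 1 fell with FH in ob/ob livers, beside 25.8% higher and 27.9% lower of all genes, and 6 rose and 2 fell in fasted livers, beside 27.4% and 27.6%. SERPINH1, the collagen chaperone, rose by 1.30 in ob/ob livers and was at -0.38 in fasted livers (edgeR adjusted p = 0.120), a difference of 1.68 (adjusted p = 0.00364), and it is made by the stellate cells whose markers were at 352 to 433 CPM in ob/ob FH, 274 to 283 CPM in ob/ob vector, 144 to 250 CPM in fasted FH and 273 to 332 CPM in fasted vector libraries. The part of these cells was not tested. The cold-inducible RNA-binding proteins RBM3 and CIRBP fell with FH in ob/ob livers, by 1.10 (adjusted p = 2.32e-05) and by 1.02 (adjusted p = 2.29e-04), and both were at -0.13 in fasted livers and not called. The differences were -0.96 (adjusted p = 0.00876) and -0.89 (adjusted p = 0.0357). RBM3 had 24.7, 28.8 and 25.4 CPM in ob/ob FH libraries, against 56.5, 56.0 and 56.3 CPM in ob/ob vector libraries, and 92.0, 66.4 and 76.5 CPM in fasted FH libraries, against 94.3, 75.7 and 87.9 CPM in fasted vector libraries. The 3 ob/ob FH libraries were the lowest of all 12.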

How the data were processed

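The authors deposited raw counts per gene, 1 column for each of 12 libraries. STAR 2.7.11a and the GRCm39 build are named in the submitters' processing notes, and a stranded mRNA kit in the labels' protocols. No source used here gives the counting tool, its annotation, or its handling of strand and of reads that match several genes. The quasi-likelihood test of edgeR 4.0.16 (R 4.3.3) was fitted after TMM scaling and filterByExpr (10 counts, 15 in total), with a mean for each of 4 groups, which leaves 8 residual degrees of freedom. Benjamini-Hochberg adjustment ran over 15228 genes. DESeq2 1.42.0 was an alternative. ± is the SD of 3 libraries. Transcript lengths, GC and overlaps came from GENCODE M21 (GRCm38) by symbol, for 49046 genes, and were used for levels per kb and for 2 alternatives (length offsets, GC offsets) that were chosen after seeing the data. Sequences are RefSeq's (GRCm38.p6). The steps were tested on simulated data. All 10 heat shock genes are named whatever their p, and of each other list up to 3 called genes with the smallest adjusted p and partners of a gene described; the 10 genes and the lists were chosen with earlier results of these data known. Replicate numbers come from the labels. Intervals cover the spread between these libraries only. They use the 8 residual degrees of freedom, fewer than the quasi-likelihood test uses, so they are somewhat wider than its p-values imply.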

Additional observations from a re-analysis of the deposited data

Results flagged for a closer look

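The FH effect on HSPD1 differed between the models by -0.73 log2 units (ob/ob minus fasted, SE 0.21, edgeR adjusted p = 0.0483). The log2 fold change was 0.58 in ob/ob livers and 1.31 in fasted livers, and all 3 FH libraries lay above all 3 vector libraries in each. The call was lost with DESeq2's size factors (-0.70, adjusted p = 0.0634), without the filter on low counts (-0.68, adjusted p = 0.0966), with GC offsets (-0.71, adjusted p = 0.0627) and without any 1 of the 12 libraries. The difference was also called for all 5 sex markers (1 higher, 4 lower), beside 8.43% of all genes, 4.77% higher and 3.66% lower. It was called higher for 8 of 8 endothelial, 7 of 8 macrophage, 5 of 7 stellate cell and 1 of 6 lymphocyte markers. For 8 hepatocyte and 4 cholangiocyte markers there were 0 calls. In this difference the sex markers cannot be told apart from the model, and the part of the cell types in the result was not tested.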

How the results depend on the processing

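Of 720 alternative values for the 9 genes, 650 kept their side of the threshold, 56 lost a call, 13 gained one and 1 called value reversed. The 650 include uncalled values that changed sign, such as those of HSPA1B with FH in fasted livers, which ran from -0.76 to 0.20. DESeq2's Wald test, summing HSPA1A and HSPA1B, and length offsets changed no call of the 9 genes. Library totals in place of TMM changed most: with FH 1039 genes were higher and 8119 lower in ob/ob, and 1087 higher and 8496 lower in fasted livers. Heat shock genes called with FH were then 2 higher and 2 lower in ob/ob livers, where HSPD1 turned to -0.045. In fasted livers 3 were called lower, and HSP90AB1 (0.33) and HSPD1 (0.64) stayed called higher. The difference of effects had 361 genes lower, ob/ob minus fasted had 2737 higher and 641 lower in vector livers, and in FH livers 1476 genes and 3 heat shock genes lower; by construction this scaling moves all genes together. The count of 1 heat shock gene lower in the difference of effects was 0 with DESeq2's size factors, GC offsets, no filter, the replicate block, and without any 1 library. In ob/ob minus fasted vector livers HSP90AB1 and HSPE1 lost their calls on library totals (-0.37 and -0.57) and with only the 2 groups fitted (-0.55 and -0.75). With no filter the difference of effects had 1 heat shock gene (HSPA1B) and 1095 genes higher. The value of HSPA1B was then 1.04, against 0.99 with the filter, where it was not called. Fitting only the 2 groups compared gave 698 genes higher and 546 lower in ob/ob minus fasted vector livers.

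Leaving out 1 library at a time, the difference of effects had 376 to 875 genes higher and 190 to 775 lower, with 0 to 0 heat shock genes lower. In vector livers ob/ob minus fasted had 848 to 1872 genes higher, 793 to 1546 lower and 4 to 8 heat shock genes lower. In FH livers it had 2170 to 2705 genes lower, 2 to 6 heat shock genes lower and 0 to 1 higher, the 1 being HSPA1A, which passed the filter there. The FH comparisons kept 3 heat shock genes higher in fasted livers and 4 to 6 in ob/ob livers.

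Same-numbered FH and vector libraries did not deviate together (r from -0.11 to 0.07 in ob/ob and from -0.04 to -0.00 in fasted livers). Differently numbered ones reached -0.21 and 0.20 in ob/ob livers. With 3 libraries a group, such values cannot settle whether the numbers pair libraries, and the main fit did not pair them. With the replicate block HSPD1's difference of effects was -0.74 (edgeR adjusted p = 0.0601) and HSP90AB1 in ob/ob minus fasted FH livers -0.42 (adjusted p = 0.0584), and no other of the 9 genes' calls changed. Depth limits HSPA1A, with at most 20 counts in a library.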
